A study of Arabidopsis thaliana with 97 samples.

Results

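The step from 15 to 30 min of flg22 in leaf discs of wildtype Arabidopsis thaliana Col-0 was examined, as 3 libraries taken at 30 min against 3 taken at 15 min. These are 6 of the 96 tag libraries with counts in a time course of 32 groups, and they were chosen by genotype, treatment and time in the sample titles. The plants were 5 weeks old and had grown in short days, and the discs were vacuum-infiltrated with water, left in dishes of water for most of a day and then moved to 100 nM flg22. All 6 libraries are wildtype in the Columbia ecotype and carry no transgene. The same step was also measured in 3 mutants with 3 libraries a time: npr1-1, which is impaired in salicylic acid perception, jar1-1, which is impaired in making the active jasmonate conjugate, and ein2-5, which is insensitive to ethylene. Water was sampled at 8 min only, so time in the dish and time in flg22 cannot be told apart between 15 and 30 min. Within a lane each time point had its own barcode, the same in every lane, so barcode and time cannot be told apart either. Nothing in the labels says that replicates came from separate plants, so p-values measure the spread between these libraries.

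The peptide flg22 is a stretch of bacterial flagellin that plants read as a sign of bacteria. It binds the receptor kinase FLS2, which pairs with the co-receptor BAK1 and releases the cytoplasmic kinase BIK1. Calcium influx, an oxidative burst from the NADPH oxidase RBOHD and MAP kinase activation follow within minutes, and WRKY factors and other immediate early genes are transcribed next. Defence metabolism, such as indole glucosinolate synthesis, and later marker genes such as FRK1 come after them.

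The 6 libraries held 1097880 to 1521335 tags. A plastid ribosomal RNA, 23S, took 4.70% to 25.3% of them. Both replicate 1 libraries were at the low end and both replicate 3 libraries at the high end, so its share went mainly with the replicate number. Within every replicate it was also higher at 30 min than at 15 min. It went from 4.70% to 6.34% in replicate 1 and from 9.82% to 14.7% in replicate 2, with the smallest difference in replicate 3. Mesophyll markers (LHCB1.1, RBCS1A, CA1 and RCA) summed to between 6459 and 13017 tags per 1000000 tags of TMM-scaled library size (TPM) in each library. Root markers (CASP1, COBL9 and RHD2) summed to at most 0.747 TPM. Summed guard cell, epidermis and flower markers overlapped between the times, from 4.85 to 11.6 against 7.0 to 10.8 TPM for guard cells. The phloem markers SUC2 and APL summed to 35.3 to 65.2 TPM at 15 min and 66.6 to 92.1 TPM at 30 min, without overlap, and neither passed the test. Their part in the changes below was not tested. In discs of mixed cells, fewer cells of a type and less RNA per cell cannot be told apart.

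Of 14569 sense genes tested, 1163 (7.98%) changed between 15 and 30 min (edgeR quasi-likelihood test, Benjamini-Hochberg adjusted p under 0.01). The rises numbered 625 (4.29%) and the falls 538 (3.69%), so within 15 min nearly as many transcripts dropped as rose. The median rise was 1.75 on the log2 scale, and 237 of the rises were over 4-fold and 70 over 8-fold. The median fall was -2.05, with 282 over 4-fold and 107 over 8-fold. Genes that rose went from a median of 24.4 to 84.1 TPM and genes that fell from 34.4 to 8.47 TPM. The 3 libraries at 30 min did not overlap those at 15 min in 623 of the rises and 533 of the falls, against 4407 (30.2%) of all genes tested. Protein-coding genes made up 617 of the rises and 531 of the falls. With the replicate number, which also marks the lane, as a block, 1689 genes were called. Of these 867 rose and 822 fell, and all 1163 genes were among them. Without 1 whole replicate, 309 to 428 rose and 235 to 319 fell. Single libraries also moved the counts: 416 rose without replicate 1 at 15 min, 352 fell without replicate 2 at 30 min and 351 fell without replicate 3 at 30 min. The balance moved with the scaling: by total tags, 464 rose and 602 fell (43.5% higher), where 53.7% of the calls were higher with TMM. Total-tag scaling moved the median of all genes from -0.06 to -0.21 and reversed no call. It lowered every list median given below and changed the sign of none.

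The genes with the largest rises, chosen by the size of their change among genes whose libraries did not overlap, had next to no tags in water. AT4G04480, which encodes an F-box protein, stood at 9.95, 23.6 and 15.7 TPM at 15 min and at 545, 404 and 526 TPM at 30 min. The times did not overlap, and the change was 4.91 ± 0.53 on the log2 scale (SE, adjusted p = 5.3e-10). It was listed at 0 in all water and 8 min libraries and had dropped to 140.1 ± 51.3 TPM (SD, n = 3) at 45 min and 23.6 ± 1.17 TPM at 60 min, so its high level was held only near 30 min among the times sampled. CYP82C3, a cytochrome P450, went from 2.76, 12.5 and 7.47 TPM to 138, 331 and 178 TPM (4.85 ± 0.49, adjusted p = 1.5e-11). Its tags were partly shared with other loci in 3 of the 6 libraries, which makes its level uncertain, and it stayed high at 45 min (431 ± 36.8 TPM) and 60 min (422 ± 66.4 TPM). The NAC factor AT3G12910 measured 8.29, 20.1 and 11.9 TPM at 15 min and 226, 347 and 358 TPM at 30 min (4.53 ± 0.43, adjusted p = 5.0e-12). Every library at 30 min was more than 10 times every library at 15 min for these 3 genes.

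Other regulators rose from almost nothing. The bHLH factor AT5G56960 had 2 tags over the 3 libraries at 15 min and 85 at 30 min, a ratio of 52.5 (95% counting interval 14.1 to 440.2). MAPKKK15, a MAP kinase kinase kinase of the MEKK group, had 3 tags at 15 min and 83 at 30 min, a ratio of 34.1 (11.3 to 169), and it went on to 95.5 ± 17.6 TPM at 45 min and 151 ± 16.6 TPM at 60 min. CYP715A1, another cytochrome P450, had 1 tag and then 52, a ratio of 64.2 (11.0 to 2583), so the size of its change is poorly set. These intervals cover counting error only. AT1G71520, an AP2/ERF factor, rose from 6.82 ± 2.41 to 146 ± 59.2 TPM, and AT1G71528, a non-coding transcript that overlaps AT1G71530 on the other strand, from 0.433 ± 0.387 to 13.5 ± 5.69 TPM. AT4G18540, of unknown function, rose from 6.13 ± 3.89 to 129 ± 15.4 TPM, and AT4G23030, a MATE family transporter, from 2.22 ± 0.557 to 45.6 ± 6.12 TPM. Adjusted p-values of these genes lay between 9.2e-10 and 1.7e-05.

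The largest falls, chosen in the same way, took transcripts to 0 or nearly so within 15 min. NUDT18, a Nudix hydrolase, had 14.4, 6.93 and 13.4 TPM at 15 min and was at 0 in all 3 libraries at 30 min. With a floor of 3 tags over the 3 libraries it was at least 14.6-fold lower (adjusted p = 1.6e-06). RTFL8, which encodes a small peptide of the ROTUNDIFOLIA-like family, had 14.4, 4.85 and 13.4 TPM and then 0 in all 3, at least 13.8-fold lower (adjusted p = 1.3e-05). Both were still at 1.06 ± 0.168 TPM at 45 min, and at 180 min they stood at 9.68 ± 1.82 and 5.34 ± 0.482 TPM, where water had 12.1 ± 2.76 and 18.5 ± 2.42 TPM. AT1G26800, a RING finger protein, was abundant beforehand, at 195, 192 and 116 TPM, and measured 6.14, 6.19 and 7.0 TPM at 30 min (-4.68 ± 0.58, adjusted p = 3.2e-09). At 45 min it was at 53.2 ± 21.3 TPM, above its level in water of 34.8 ± 13 TPM.

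AT3G12830, a gene of the SAUR family of auxin-responsive proteins, had the shape of a pulse. It stood at 8.48 ± 2.13 TPM in water, 77.4 ± 9.57 TPM at 8 min, 44.8, 34.0 and 41.8 TPM at 15 min and 1.75, 0.774 and 0 TPM at 30 min, a ratio of 50.2 between the last times (counting interval 16.9 to 246, adjusted p = 1.2e-08). The homeodomain leucine zipper gene HB-12 went from 32.1, 24.3 and 32.1 TPM to 0, 0 and 3.11 TPM (-4.67 ± 0.80, adjusted p = 7.3e-06) and stayed at or below 1.21 TPM on average up to 180 min. EPR1, a MYB-like factor tied to phytochrome and the clock, had 25.4, 20.1 and 5.97 TPM and then 0, 1.55 and 0 TPM, with part of its tags shared in 4 libraries. The PLATZ factor AT1G76590 and AT2G30230 fell from 15.5 ± 4.2 and 17.5 ± 1.63 TPM to 0.292 ± 0.506 and 0.518 ± 0.898 TPM. That the times did not overlap in these genes was part of how they were chosen.

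**Figure D1:**
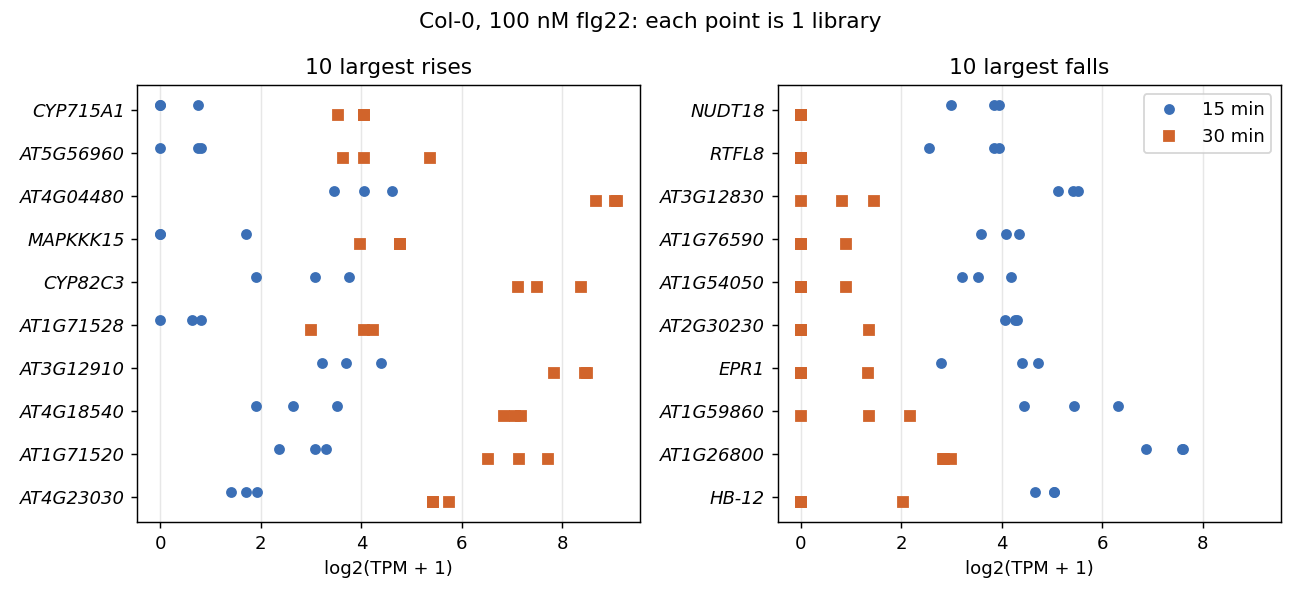
Levels of the 10 genes with the largest rise and the 10 with the largest fall, as log2(TPM + 1) on the x axis, where each point is 1 library (circles 15 min, squares 30 min; 3 libraries each). The 3 squares lie apart from the 3 circles because the genes were chosen that way, and NUDT18 and RTFL8 sit at 0 in all 3 libraries at 30 min.

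Sequence at the starts of these genes was taken from RefSeq (TAIR10.1), in windows of 250 bases before to 50 after the annotated gene start. The windows were searched on both strands for 5 motifs. WRKY factors bind the W-box, which was searched as TTGACC and, for the same factors in its other common form, as TTGACT. Calmodulin-binding CAMTA factors bind CGCG elements, which were searched as ACGCGT and, in the forms with a different last or first base, as CGCGTG and, for the remaining form of the element, as CGCGTT. The G-box, a site of bHLH and bZIP factors, was searched as CACGTG, and the GCC-box, which ERF factors bind, as GCCGCC. The evening element of genes under the control of the clock was searched as AAATATCT. Letters of a match are in capitals below, and the CGCG forms can overlap one another. Windows of the rising genes CYP82C3, AT5G56960 and AT3G12910 are shown for their repeated W-boxes, and those of the falling genes EPR1 and AT1G26800 for an evening element. The CYP82C3 window, chr4:15454833-15455132 on the plus strand, held 4 W-boxes and a CGCG element. The AT5G56960 window, chr5:23041568-23041867 on the minus strand, held 3 W-boxes, of which the last 2 lie end to end. The AT3G12910 window, chr3:4109125-4109424 on the plus strand, held 2. The EPR1 window, chr1:6308194-6308493, and the AT1G26800 window, chr1:9286346-9286645, are both on the minus strand.
CYP82C3: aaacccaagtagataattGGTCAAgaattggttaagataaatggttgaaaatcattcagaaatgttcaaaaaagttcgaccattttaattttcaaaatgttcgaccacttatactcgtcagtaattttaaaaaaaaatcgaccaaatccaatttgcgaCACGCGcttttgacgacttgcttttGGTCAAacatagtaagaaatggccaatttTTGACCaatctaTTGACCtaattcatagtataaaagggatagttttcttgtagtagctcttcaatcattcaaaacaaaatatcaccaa
AT5G56960: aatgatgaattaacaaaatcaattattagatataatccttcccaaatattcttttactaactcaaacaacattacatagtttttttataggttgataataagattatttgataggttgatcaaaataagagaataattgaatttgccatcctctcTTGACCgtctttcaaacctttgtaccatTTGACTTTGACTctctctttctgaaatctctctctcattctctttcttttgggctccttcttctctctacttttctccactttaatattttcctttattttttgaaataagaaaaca
AT3G12910: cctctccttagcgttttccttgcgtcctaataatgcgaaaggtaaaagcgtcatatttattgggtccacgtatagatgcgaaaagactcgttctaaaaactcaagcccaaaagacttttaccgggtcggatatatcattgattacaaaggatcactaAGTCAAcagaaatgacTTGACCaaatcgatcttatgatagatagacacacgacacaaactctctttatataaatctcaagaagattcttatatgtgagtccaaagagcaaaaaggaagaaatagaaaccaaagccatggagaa
EPR1: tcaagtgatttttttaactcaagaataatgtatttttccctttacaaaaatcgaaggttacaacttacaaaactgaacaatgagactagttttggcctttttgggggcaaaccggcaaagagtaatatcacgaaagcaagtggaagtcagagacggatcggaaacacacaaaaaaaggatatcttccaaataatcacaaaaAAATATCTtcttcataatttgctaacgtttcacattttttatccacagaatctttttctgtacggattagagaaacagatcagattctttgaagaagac
AT1G26800: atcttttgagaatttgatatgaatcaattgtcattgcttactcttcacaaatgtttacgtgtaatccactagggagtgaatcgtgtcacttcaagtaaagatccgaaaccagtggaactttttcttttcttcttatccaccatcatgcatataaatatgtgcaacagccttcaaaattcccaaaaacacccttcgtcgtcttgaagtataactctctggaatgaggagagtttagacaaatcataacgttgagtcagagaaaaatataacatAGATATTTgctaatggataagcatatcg

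Over all genes, W-boxes were more frequent among the rises. A W-box was present in 387 of the 617 windows of genes that rose (62.7%), in 159 of 531 windows of genes that fell (29.9%), in 34.5% of the 13975 windows of genes tested and in 32.4% of all 27443 protein-coding windows. At least 2 W-boxes stood in 28.5% of the rises, 7.72% of the falls and 8.88% of genes tested. CGCG elements were in 17.3% of the rises and 4.14% of the falls, against 7.83% of genes tested. The order was the other way for the G-box, in 5.83% of the rises and 11.7% of the falls against 9.04%, and for the evening element, in 3.4% and 9.23% against 6.28%. The GCC-box was in 3.24% of the rises and 3.01% of the falls, near the 2.88% of genes tested. A match is a run of letters and not a shown binding site, and the shares were not tested.

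**Figure D2:**
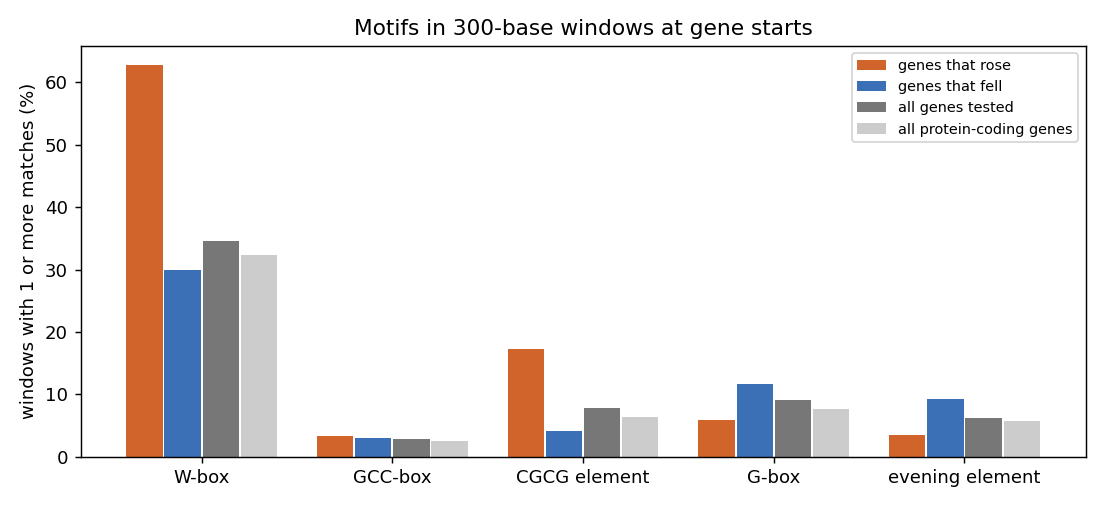
Share of 300-base windows at gene starts (y axis, percent) that hold at least 1 match of each motif (x axis), for genes that rose, genes that fell, all genes tested and all protein-coding genes. The W-box bar of the rises stands at 62.7% where that of all genes tested stands at 34.5%, and the evening element bar of the falls stands at 9.23% where all genes tested reach 6.28%.

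Of 15 genes tested for perception and signalling of flg22 and other patterns at the membrane, 8 rose and the other 7 did not pass the test. Of all genes tested, 7.98% were called in either direction, and the counts of each list below are to be read against that share. The list had a median change of 1.33 against -0.06 for all genes tested. RBOHD, the oxidase of the oxidative burst, went from 75.2, 72.1 and 68.0 TPM to 282, 409 and 365 TPM (2.29 ± 0.27, adjusted p = 9.2e-10). The co-receptors BKK1 and BAK1 rose from 25.2 ± 3.96 to 96.9 ± 12.2 TPM and from 62.2 ± 1.33 to 128 ± 30.5 TPM. LYK5, a chitin receptor kinase, rose from 9.91 ± 5.19 to 42.7 ± 9.81 TPM, PEPR1, the receptor of Pep peptides, from 18.0 ± 4.01 to 65.8 ± 23.3 TPM, and SOBIR1, the adaptor kinase of receptor-like proteins, from 403 ± 26.8 to 1024 ± 133 TPM. FLS2 itself had 47.6, 34.0 and 35.8 TPM and then 86.8, 57.3 and 58.3 TPM, without overlap, but its change of 0.78 ± 0.42 did not pass (adjusted p = 0.263, and 0.0087 with the replicate block fitted to these groups alone). BIK1 changed by 0.45 (adjusted p = 0.18).

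MAP kinase genes went in both directions. Of 17 tested, 4 rose, MKK9 fell and 12 did not pass, with a median of 0.53. With the replicate block 9 were called, where 1689 of all 14569 genes tested were. MAPKKK5, which acts downstream of pattern receptors, rose from 12.2, 9.70 and 11.2 TPM to 54.3, 46.4 and 52.9 TPM (2.20 ± 0.37, adjusted p = 5.7e-06). MPK11 rose from 94.0 ± 16.1 to 299 ± 22.8 TPM and MEKK1 from 12.4 ± 3.69 to 26.9 ± 5.83 TPM. MPK3 measured 377, 460.1 and 363 TPM and then 772, 882 and 713 TPM, close to a doubling without overlap (0.98 ± 0.27, adjusted p = 0.0080). That call was lost in 11 of 18 other settings, each single library left out among them, with adjusted p up to 0.075. MKK9, a kinase placed upstream of ethylene and camalexin responses, fell from 54.2, 85.2 and 69.4 TPM to 8.76, 10.1 and 10.1 TPM (-2.83 ± 0.33, adjusted p = 5.9e-10) and stayed at 6.22 ± 3.87 TPM at 45 min.

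Of 17 calcium signalling genes tested, 3 rose, CML23 fell and 13 did not pass (median 0.51). The calmodulin-like gene CML42 rose from 57.0, 107 and 68.7 TPM to 422, 761 and 455 TPM (2.81 ± 0.40, adjusted p = 1.2e-07), with replicate 2 the highest at both times. CPK28, a calcium-dependent kinase that limits BIK1, rose from 91.3 ± 18.6 to 289.7 ± 25.4 TPM, and the calcium pump gene ACA10 from 21.4 ± 10.7 to 44.3 ± 8.92 TPM. CML23, another calmodulin-like gene, went the other way, from 39.3, 54.1 and 47.0 TPM to 7.89, 3.10 and 10.1 TPM (-2.72 ± 0.42, adjusted p = 7.0e-07). It had been at 6.62 ± 1.93 TPM in water and 37.7 ± 0.572 TPM at 8 min, so at 30 min it was again near its level in water. Its window, chr1:24771344-24771643 on the minus strand, is shown because it holds 3 CGCG matches, the first 2 overlapping, in a gene that fell.
CML23: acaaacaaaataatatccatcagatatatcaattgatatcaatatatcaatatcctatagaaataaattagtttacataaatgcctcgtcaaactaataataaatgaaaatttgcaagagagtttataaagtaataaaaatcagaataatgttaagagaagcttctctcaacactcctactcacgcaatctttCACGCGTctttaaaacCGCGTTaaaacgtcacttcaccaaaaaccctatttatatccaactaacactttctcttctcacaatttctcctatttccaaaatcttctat

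Of 32 WRKY genes tested, 9 rose, WRKY45 fell and 22 did not pass, with a median of 0.92. WRKY30 went from 46.4, 34.6 and 41.1 TPM to 453, 654 and 493 TPM (3.71 ± 0.47, adjusted p = 1.0e-08), WRKY55 from 2.25 ± 1.66 to 28.4 ± 9.54 TPM and WRKY41 from 39.0 ± 12.1 to 280.0 ± 60.2 TPM, and these 3 belong to WRKY group III. WRKY33, the regulator of camalexin synthesis, had 525, 555 and 489.9 TPM and then 1619.7, 1605 and 1396 TPM (1.56 ± 0.32, adjusted p = 1.7e-04). Without replicate 2 its adjusted p was 0.013. WRKY29, a factor placed below the MAP kinases, went from 74.1, 122 and 181 TPM to 303, 491 and 413 TPM (1.68 ± 0.41, adjusted p = 0.0022), with shared tags in 3 libraries. Its call was lost in 5 other settings that left out libraries of replicates 1 or 2, with adjusted p up to 0.070. Its partner WRKY22 was at 327, 359.7 and 392 TPM and then 460.1, 505 and 442 TPM, without overlap, and did not pass (0.38 ± 0.29, adjusted p = 0.50). WRKY40, WRKY18 and WRKY60, which form complexes with one another, changed by 0.22, -0.30 and -0.58 and did not pass. WRKY45 fell from 92.9, 140.0 and 161 TPM to 58.7, 51.9 and 54.4 TPM (-1.25 ± 0.30, adjusted p = 0.0017), a call that was lost without each of the 3 replicates in turn (adjusted p of 0.012, 0.064 and 0.029). The WRKY30 window, chr5:8154661-8154960 on the minus strand, held 3 W-boxes and is shown as a WRKY gene with the WRKY motif at its own start.
WRKY30: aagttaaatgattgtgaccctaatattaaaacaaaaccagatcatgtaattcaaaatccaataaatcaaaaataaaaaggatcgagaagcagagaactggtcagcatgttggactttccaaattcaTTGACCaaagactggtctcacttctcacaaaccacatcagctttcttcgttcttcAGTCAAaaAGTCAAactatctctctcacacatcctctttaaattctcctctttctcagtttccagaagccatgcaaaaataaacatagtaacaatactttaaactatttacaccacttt

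Of 20 ERF and CBF genes tested, 6 fell and 14 did not pass, with a median of -0.95. These counts do not cover the whole AP2/ERF family. AT1G71520, the AP2/ERF factor given above among the largest rises, was not in the list. Also left out are AP2/ERF loci for which the annotation does not give the listed symbol. Among those, AT1G74930 (ORA47) fell from 16.7 ± 2.44 to 1.1 ± 0.564 TPM and AT1G22810 rose from 23.6 ± 10.9 to 182 ± 22.0 TPM (2.95 ± 0.39, adjusted p = 2.7e-08). ERF2 fell from 123.3, 80.4 and 98.6 TPM to 22.8, 13.9 and 18.7 TPM (-2.45 ± 0.44, adjusted p = 1.9e-05), and ORA59, an integrator of ethylene and jasmonate signals, from 18.0 ± 5.11 to 1.39 ± 1.07 TPM. DREB2A fell from 30.1 ± 16.3 to 4.56 ± 0.157 TPM and the repressor ERF4 from 421 ± 13.4 to 173 ± 48.0 TPM. ERF9 had 29 tags at 15 min and 1 at 30 min, a ratio of 23.5 (counting interval 3.9 to 959.6), and its call was lost without each of the 3 replicates in turn (adjusted p of 0.029, 0.043 and 0.018). ERF6, in contrast, was at 192 ± 13 and then 318 ± 29.5 TPM and did not pass (0.73, adjusted p = 0.31).

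Of 8 ZAT and AZF zinc finger genes, 3 fell, ZAT11 rose and 4 did not pass (median -0.92). AT3G46080, a zinc finger locus left out for the same reason, fell from 113 ± 11.8 to 22.0 ± 11.7 TPM (-2.37 ± 0.44, adjusted p = 3.5e-05). ZAT6 fell from 791, 895 and 718 TPM to 270.0, 143 and 235 TPM (-1.89 ± 0.32, adjusted p = 5.4e-06), ZAT12 from 460.2 ± 60.6 to 199 ± 50.4 TPM and AZF3 from 86.8 ± 33.5 to 18.6 ± 2.72 TPM, with an adjusted p of 0.015 for AZF3 without replicate 3. ZAT11 rose from 462 ± 128 to 1122 ± 115 TPM, a call that was lost in 9 of 18 other settings, each replicate left out among them, with adjusted p up to 0.18. Among 21 MYB, NAC and heat shock factors, 6 fell, 2 rose and 13 did not pass (median -0.56). NAC055 went from 71.3, 85.2 and 74.7 TPM to 6.14, 5.42 and 7.0 TPM (-3.62 ± 0.47, adjusted p = 1.3e-08), and its relatives NAC019 and RD26 fell from 116 ± 10.1 to 20.0 ± 14.8 TPM and from 46.0 ± 9.39 to 15.5 ± 4.08 TPM. These NAC genes are known from jasmonate and abscisic acid responses. NAC036 rose from 14.9 ± 4.59 to 72.4 ± 20.3 TPM, and MYB51, the activator of indole glucosinolate genes, from 138 ± 23.5 to 314 ± 18.0 TPM.

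**Figure D3:**
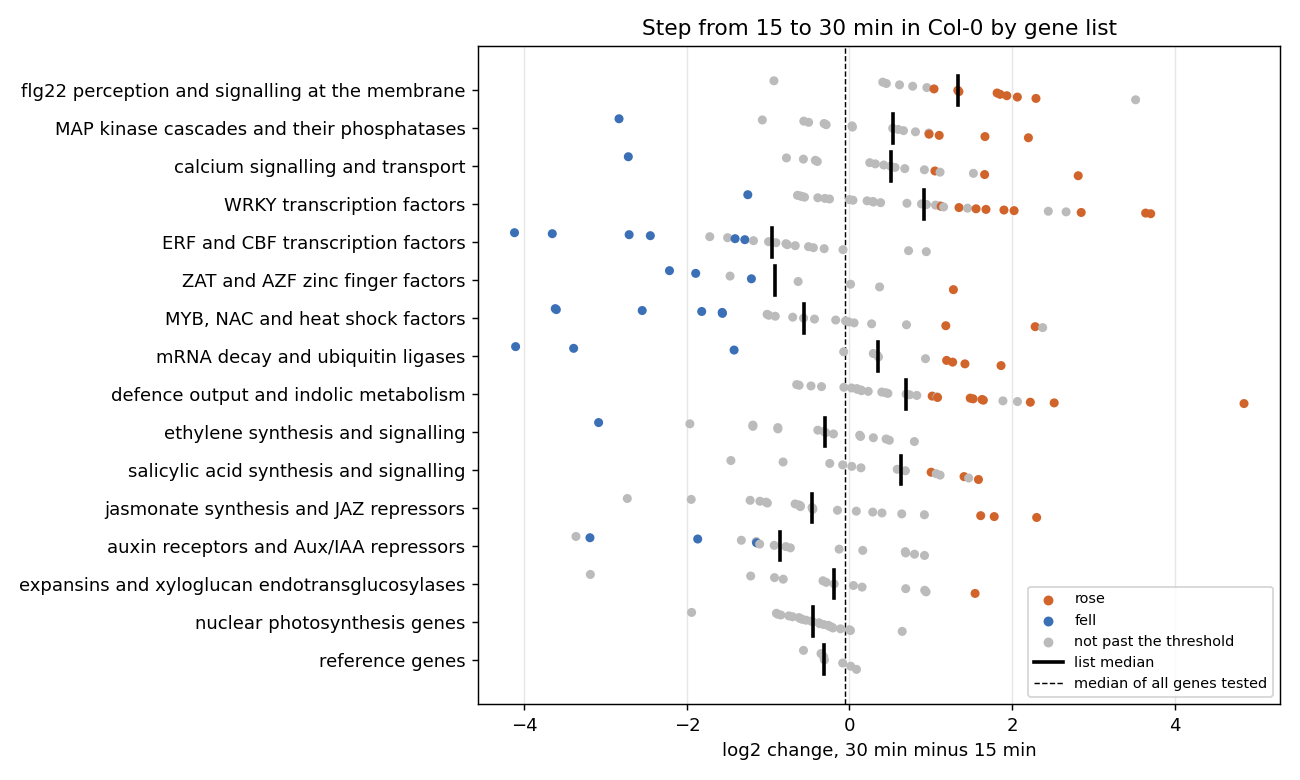
Change of each tested gene between 15 and 30 min (x axis, log2 of 30 min over 15 min) in 16 gene lists (y axis), where each point is 1 gene, orange for a rise, blue for a fall and grey where the test was not passed. Black bars are list medians and the dashed line is the median of all genes tested, -0.06. Medians ran from 1.33 for membrane perception to -0.95 for ERF and CBF factors.

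Genes of the mRNA decay and ubiquitin list moved in both directions. Of 12 tested, 4 rose, 3 fell and 5 did not pass (median 0.35). The tandem CCCH zinc finger genes OZF2 and OZF1 fell from 74.1, 52.0 and 44.8 TPM to 3.51, 3.10 and 3.11 TPM (-4.11 ± 0.56, adjusted p = 5.8e-08) and from 23.8 ± 4.29 to 2.24 ± 1.90 TPM. SZF1, of the same family, rose from 479.9 ± 33.1 to 1157 ± 19.4 TPM. CAF1A, a deadenylase that shortens poly(A) tails, fell from 662 ± 84.0 to 248 ± 80.1 TPM, while CAF1B changed by 0.34 and did not pass. The ubiquitin ligase genes PUB24 and PUB23, whose products damp pattern-triggered responses, rose from 33.2, 49.2 and 63.5 TPM to 173, 177 and 179.6 TPM (1.86 ± 0.26, adjusted p = 1.0e-07) and from 292 ± 15.0 to 668 ± 69.3 TPM, and PUB22 changed by -0.07 (adjusted p = 0.94).

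Of 29 genes of defence output and indolic metabolism tested, 9 rose and the other 20 did not pass, with a median of 0.70. CYP81F2, which hydroxylates indole glucosinolates, rose from 129, 175 and 237 TPM to 845, 1282 and 977 TPM (2.52 ± 0.48, adjusted p = 6.6e-05). The methyltransferase genes that take the next step, IGMT4 and IGMT2, had the largest rises in TPM among the genes called. They went from 966 ± 56.7 to 2596 ± 320.0 TPM and from 245 ± 32.0 to 1853 ± 470.0 TPM (adjusted p = 0.0027 and 2.6e-06). Their tags were shared with near-identical copies in all 6 libraries, so the split between them is uncertain, and the call of IGMT4 was lost in 7 other settings that left out libraries, with adjusted p up to 0.055. PEN2, the myrosinase that activates these glucosinolates, rose from 415, 399 and 405 TPM to 1178, 1442 and 1199.5 TPM (1.65 ± 0.23, adjusted p = 1.1e-07), PEN3, an ABC transporter, from 750.1 ± 108 to 1519 ± 120.3 TPM, and the syntaxin gene PEN1 from 131 ± 17.6 to 405 ± 89.6 TPM. NHL10 rose from 79.1, 119 and 104 TPM to 349, 613 and 449 TPM (2.22 ± 0.41, adjusted p = 3.4e-05). Core camalexin genes did not move past the threshold, with PAD3 at 19.6 ± 14.4 and 20.9 ± 14.8 TPM and CYP71A13 at 0.498 ± 0.862 and 2.1 ± 1.58 TPM. FRK1, the usual later marker, had 206, 158 and 331 TPM and then 363, 163 and 243 TPM, overlapping (0.15 ± 0.50, adjusted p = 0.92), and reached 2767 ± 126 TPM at 120 min.

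Other abundant transcripts rose by a few fold. AT1G55450, an S-adenosylmethionine-dependent methyltransferase, went from 518, 707 and 654 TPM to 1885, 2429 and 1961 TPM (1.74 ± 0.29, adjusted p = 3.9e-06). AT5G03380, a heavy-metal-binding domain protein, went from 286, 301 and 356 TPM to 1665, 1689 and 1712 TPM (2.43 ± 0.31, adjusted p = 1.2e-08), the tightest of these groups. AT5G19240, a GPI-anchored glycoprotein, rose from 797 ± 101 to 2156 ± 176 TPM, with shared tags in 4 libraries and an adjusted p of 0.018 without replicate 1. AT3G15450, an aluminium-induced protein, had the largest fall in TPM among the genes called, from 2001, 2106 and 2886 TPM to 387, 191 and 265 TPM (-3.05 ± 0.44, adjusted p = 1.3e-07). It had been at 623 ± 150.2 TPM in water and returned to 1036 ± 117 TPM at 120 min.

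Among hormone genes, the shares called are to be read against 7.98% of all genes tested, and counts with the replicate block against 1689 of 14569. Of 16 ethylene genes tested, 1 was called, a share near that background, and 4 with the replicate block, at a median of -0.30. The salicylic acid, jasmonate and auxin lists had larger shares called. That gene, EBF2, whose product marks the ethylene factor EIN3 for degradation, fell from 129, 94.9 and 126 TPM to 12.3, 10.8 and 17.9 TPM (-3.09 ± 0.35, adjusted p = 2.8e-10), and it was back at 109.9 ± 6.68 TPM at 45 min. Of 14 salicylic acid genes, 3 rose and 11 did not pass (median 0.64). EDS1 rose from 20.1 ± 4.99 to 53.2 ± 6.23 TPM and its partner SAG101 from 70.2 ± 19.3 to 141 ± 15.1 TPM. The salicylic acid pathway gene EDS5 rose from 6.47 ± 2.89 to 19.3 ± 4.61 TPM, a call lost in 7 other settings. Those settings were scaling by total tags (adjusted p = 0.014), replicate 1 or 2 left out (0.077 and 0.27) and each of their libraries left out alone (0.014 to 0.052). Of 22 jasmonate genes, 3 rose and 19 did not pass (median -0.46), and 5 were called with the block. The lipoxygenase genes LOX4 and LOX3 rose from 227, 247 and 223 TPM to 1059.7, 1195 and 1183 TPM (2.30 ± 0.34, adjusted p = 3.2e-07) and from 57.8 ± 7.56 to 177 ± 23.7 TPM, and AOC3 from 14.5 ± 3.08 to 49.9 ± 10.4 TPM. The JAZ repressor genes did not pass, with JAZ9 and JAZ6 at -1.22 and -1.03 (adjusted p = 0.021 and 0.020). Of 16 auxin genes, 3 fell and 13 did not pass (median -0.85). The auxin receptor gene TIR1 fell from 7.19, 8.32 and 8.96 TPM to 0, 1.55 and 0.777 TPM, a ratio of 9.99 (counting interval 3.16 to 50.7, adjusted p = 9.5e-04, and 0.020 and 0.040 without replicate 1 or 3), its relative AFB3 from 11.0 ± 1.75 to 2.95 ± 1.58 TPM and IAA18 from 62.6 ± 10.1 to 28.3 ± 4.81 TPM.

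Of 13 expansin and xyloglucan endotransglucosylase genes tested, only XTH18 was called, a share near the 7.98% of all genes tested. It was at 114 ± 9.01 and then 334 ± 73.0 TPM (adjusted p = 0.0016, and 0.041 and 0.042 without replicate 1 or 2). With the block 3 of the list were called, where 1689 of all 14569 genes tested were. The 23 nuclear photosynthesis genes lay between -1.94 and 0.65, with a median of -0.45, and did not pass, though 1 did with the block. The 7 reference genes lay between -0.57 and 0.09, with a median of -0.31, and did not pass.

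Several of the genes with the largest falls, which were chosen by the size of their change, encode heat shock proteins. HSP90.1, a cytosolic chaperone that assists resistance proteins, stood at 27.5 ± 17.2 TPM in water and 25.8 ± 9.92 TPM at 8 min, at 818, 1604 and 591 TPM at 15 min and at 183, 159 and 76.2 TPM at 30 min (-2.85 ± 0.55, adjusted p = 7.2e-05). At 45 min it was again at 884 ± 542 TPM. The constitutive family members HSP81-2 and HSP81-3 went from 1501 ± 565 and 1169 ± 449.5 TPM to 258 ± 101 and 236 ± 46.8 TPM and were at 1166 ± 384 and 834 ± 278 TPM by 45 min, where water had 142 ± 64.3 and 166 ± 55.8 TPM, and their tags were shared in all 6 libraries. The HSP70 gene AT3G09440 went from 1996, 2568 and 1036 TPM to 465, 302 and 195 TPM (-2.54 ± 0.58, adjusted p = 8.6e-04, and 0.031 without replicate 3). Of small heat shock genes, AT1G59860 fell from 47.5 ± 29.4 to 1.69 ± 1.76 TPM and AT1G54050 from 12 ± 4.74 to 0.292 ± 0.506 TPM, the latter call lost without each of the 3 replicates in turn (adjusted p of 0.019, 0.077 and 0.024). The heat shock factor genes HSFA2 and HSFB2A fell from 27.0 ± 16.9 to 2.21 ± 1.92 TPM and from 52.9 ± 2.06 to 14.9 ± 4.1 TPM. At 15 min the libraries spread widely in HSP90.1, with replicate 2 highest and replicate 3 lowest, but none came down to the level at 30 min.

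**Figure D4:**
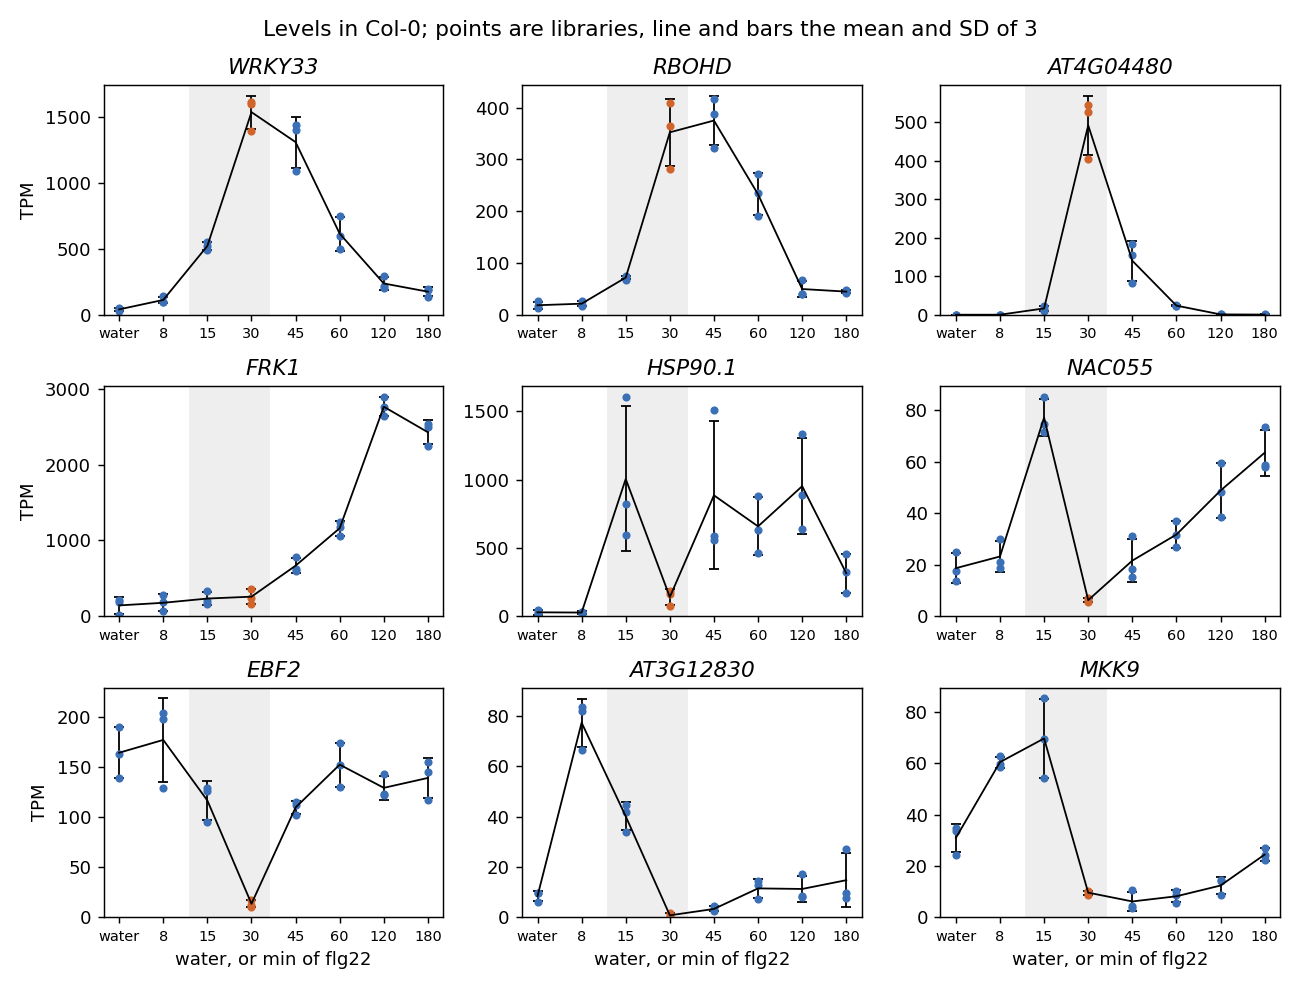
TPM (y axis) of 9 genes in Col-0 in water and over the flg22 time course (x axis, min, evenly spaced and not to scale). Points are libraries, lines join the means, bars are the SD of 3 libraries, and the shaded band spans 15 and 30 min with the 30 min libraries in orange. HSP90.1 and EBF2 are low at 30 min between higher levels at 15 and 45 min, while FRK1 is near 250 TPM at both times of the step and 2767 TPM at 120 min.

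Genes that had already answered at 8 min went on in both directions. Against water, 185 genes (1.27%) were called higher at 8 min, in libraries that the step does not use. Of these, 43 rose further between 15 and 30 min (23.2%), 17 fell (9.19%) and 125 were not called, whereas of the other 14384 genes 582 rose (4.05%) and 521 fell (3.62%). The median change of the 185 was 0.37 and that of the others -0.06. AT3G12830 was the largest of the 17 falls. ORA47, an AP2/ERF factor of early jasmonate signalling, fell from 16.7 ± 2.44 to 1.1 ± 0.564 TPM, MAPKKK14 from 38.3 ± 1.81 to 6.06 ± 3.66 TPM, and RTFL12 from 89.5 ± 17.3 to 11.7 ± 2.09 TPM. AT1G17147 had the largest of the 43 rises, from 66.5 ± 16.9 to 427 ± 77.2 TPM, and LOX4, NHL10, MPK11, WRKY33 and XTH18 were among them. ORA47, MAPKKK14, RTFL12 and AT1G17147 were chosen after their values were seen.

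The same genes were followed over the whole course, where the values at 15 and 30 min come from the libraries that chose them. Against water, the 625 rises had a median log2(TPM + 1) difference of 0.28 after 8 min and 1.42 after 15 min, climbed to 3.29 at 30 min and 3.56 at 45 min, and then came to 3.25 by 60 min, 2.00 by 120 min and 1.6 by 180 min. The 538 falls stood at 0.10, 0.53, -1.19, -0.95, -0.60, 0.16 and 0.27 at those times, below water from 30 to 60 min and above it from 120 min. All genes tested lay between -0.08 and -0.36. In libraries that the step does not share, 71.8% of the rises and 61.7% of the falls were higher at 8 min than in water, against 42.5% of all genes tested. Between 45 and 60 min, where 74 genes (0.508%) were called and 229 with the replicate block, 71.2% of the rises were lower at 60 min against 50.9% of all genes, and 65.2% of the falls were higher against 48.6%. Of the 625 rises, 35 were called lower between 45 and 60 min, and of the 538 falls 5 were called higher.

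The same step in the 3 mutants, in libraries of their own, called 1142 genes in npr1-1 (7.84%), 1364 in jar1-1 (9.36%) and 1004 in ein2-5 (6.89%). With the replicate block the counts were 1714, 2056 and 1599. Replicate 3 of ein2-5 at 15 min was the smallest library of the series, with 388494 tags. With all libraries of replicate 3 left out, 662 genes were called in ein2-5, against 434 without replicate 1 and 425 without replicate 2. The small library was not left out alone, so its own part was not tested. Of the 625 genes that rose in Col-0, npr1-1 had 625 higher at 30 min and 532 called higher, jar1-1 had 624 and 523, and ein2-5 had 625 and 481. Of the 538 falls, the same mutants had 537, 534 and 525 lower and 321, 394 and 246 called lower. All 3 mutants shared the Col-0 direction for 624 rises and 520 falls. Of the 14569 genes tested, 7830 (53.7%) had the direction of Col-0 in all 3 mutants. In npr1-1 the Col-0 rises had a median change of 1.68 and the falls of -1.61. The jar1-1 medians were 1.65 and -1.91 and the ein2-5 medians 1.72 and -1.37. Since the genes were called in Col-0, its own medians are not set beside these.

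AT4G04480 went from 9.98 ± 10.1 to 389 ± 108 TPM in npr1-1, from 13.4 ± 7.96 to 351 ± 101 TPM in jar1-1 and from 3.34 ± 4.30 to 176 ± 45.0 TPM in ein2-5. HSP90.1 fell in each mutant, from 928 ± 240.3 to 95.5 ± 71.3 TPM in npr1-1, from 1109 ± 458 to 273 ± 211 TPM in jar1-1 and from 752 ± 234 to 115 ± 20.8 TPM in ein2-5. FRK1 changed by 0.68, 0.62 and 1.24 and did not pass in any of the 3. The membrane perception list had 9, 7 and 10 rises in npr1-1, jar1-1 and ein2-5, and the WRKY list 11, 11 and 8. The ERF and CBF list had 6, 7 and 2 falls, with medians of -0.80, -0.94 and -0.10.

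**Figure D5:**
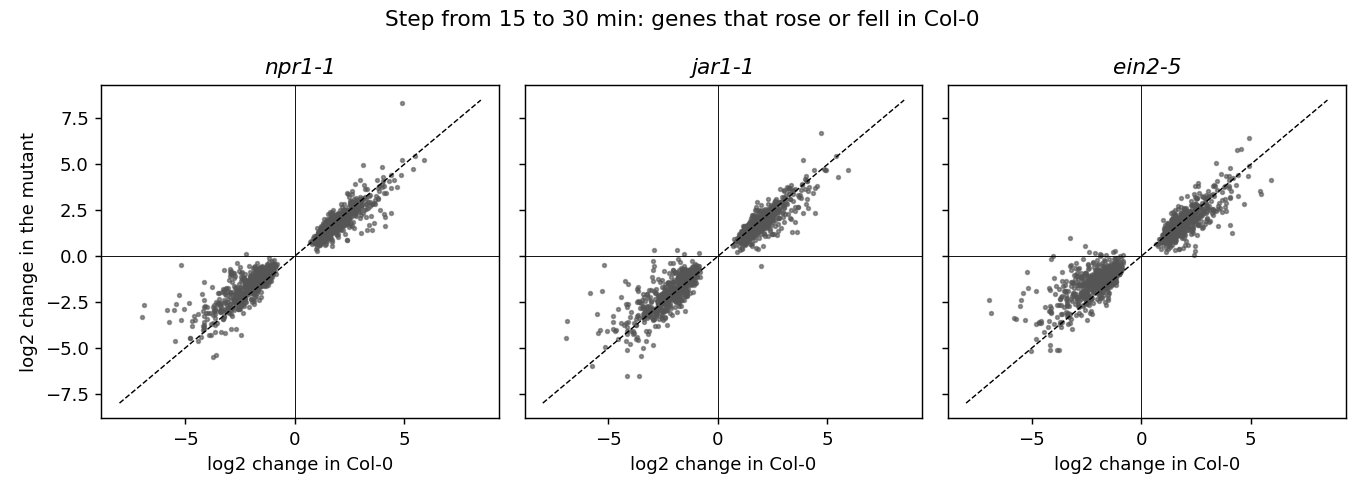
Change between 15 and 30 min in each mutant (y axis, log2) against that in Col-0 (x axis, log2) for the 1163 genes called in Col-0, 1 point a gene, with the dashed line where both are equal. Nearly all points lie in the lower left or upper right of each panel, as 624 of 625 rises and 520 of 538 falls shared their direction in all 3 mutants.

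Whether the step differed between a mutant and Col-0 was tested for each gene. edgeR called 0 genes for npr1-1, jar1-1 and ein2-5, and DESeq2 called 0, 0 and 1. Of the 14569 genes tested by edgeR, 295, 310 and 444 had an unadjusted p under 0.05. Each of these counts is a smaller share than the 0.05 that evenly spread p-values would give, so they are no sign of a difference. The gene nearest to the threshold was ARL, an organ size gene, which changed by -0.78 in Col-0 and 2.05 in ein2-5, a difference of 2.83 ± 0.54 (adjusted p = 0.022, and 0.0013 with the replicate block). The flowering regulator FBH4 changed by -3.99 in Col-0 and -1.21 in ein2-5, a difference of 2.78 ± 0.56 (adjusted p = 0.040). EBF2 was already low at 15 min in ein2-5, at 15.3, 11.1 and 16.6 TPM, and measured 8.67, 1.74 and 8.96 TPM at 30 min. Its difference from Col-0 had an unadjusted p of 3.3e-04 and an adjusted p of 0.50. ARL and FBH4 were chosen after their values were seen. ARL was also the 1 gene that the replicate block and DESeq2 called. A p that misses the threshold does not show that the genotypes act alike.

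Antisense transcripts were counted apart by strand. Of 2247 tested, 100 changed (4.45%), 83 of them higher and 17 lower. The sense gene had been tested for 91 of these, and it was called in the same direction for 71 and not called for 20. Of all 14569 sense genes tested, 7.98% were called in either direction. Sense genes of the antisense transcripts that were not called were not counted. The antisense transcript of AT1G51900 rose from 18.6 ± 6.58 to 119 ± 6.20 TPM where the sense gene changed by 2.38. That of AT3G21300 rose from 56.0 ± 20.4 to 246 ± 70.2 TPM where the sense gene changed by 0.29 and was not called. The antisense transcript of CYP71B13 fell from 6.47 ± 2.33 TPM to 0 in all 3 libraries, and its sense gene changed by -0.83 (adjusted p = 0.71). These 3 were chosen after their values were seen.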

How the data were processed

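EXPRSS Tag-seq primes cDNA on poly(A) and reads 1 tag near the 3' end of each transcript, with the strand kept. Per the labels and the submitters' processing notes, the authors aligned tags to TAIR10 with Bowtie 0.12.8 and worked in R 2.15.3. The deposited files hold expected counts per locus, with antisense loci apart. A tag that matched several loci, up to 10, was divided among them, so near-identical genes are uncertain. Between 12.0% and 18.4% of values in a library were not whole, and all were rounded before testing.

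Of 97 samples, 1 without a genotype or time in its labels was not analysed here. The other 96 libraries, of 388494 to 2415097 tags, were fitted together with edgeR 4.0.16 (R 4.3.3, limma 3.58.1) by quasi-likelihood with 1 term for each of 32 groups, TMM scaling and filterByExpr (minimum count 10, minimum total 15). The 16816 sense and antisense features that passed were adjusted together by Benjamini-Hochberg and called under 0.01, two-sided. SE is the size of the log2 change divided by the root of F. TPM is tags per 1000000 tags of effective library size, which is the library's total multiplied by its TMM factor (0.882 to 1.21 in the 6 Col-0 libraries), without a length term. Ratios of genes with few tags are of pooled tags with an exact 95% interval, and the floor is 3 tags over a group. Intervals cover counting error only. DESeq2 1.42.0 was an alternative, with the others in the closing section. Scripts were tested on simulated data.

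Each lane held the 8 libraries of 1 genotype and replicate number. In 5000 loci, deviations from the group means of same-numbered Col-0 libraries correlated at 0.40, 0.45 and 0.34, so the numbers were taken to pair the libraries. Those of different numbers correlated at -0.33 to -0.07, but deviations cancel within a group, so these values add no separate evidence. The lane and anything else that libraries of 1 number shared cannot be told apart. No pair of replicates agreed within sampling noise.

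Members and lists were chosen with earlier results of these data known. Named genes are, among called genes, the 10 largest rises and falls with a group mean of at least 10 TPM and no overlap, and the 5 largest rises and falls in TPM. The called list members that rose or fell most are also named, as are FLS2, FRK1, WRKY22, WRKY29, WRKY33, MPK3 and NHL10. Further list members are examples chosen after their values were seen. A list member was kept where the RefSeq annotation gave its symbol, which left 323 in 16 lists and dropped 10 whose loci were measured or filtered like any other, 3 of them called in the step and named in the report. Windows at gene starts were cut from the TAIR10.1 RefSeq genome by locus code.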

Additional observations from a re-analysis of the deposited data

How the results depend on the processing

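With 3 libraries a time, the number of calls moved with the libraries left out, the block and the threshold. Without 1 replicate, 546 to 747 genes were called between 15 and 30 min in Col-0, 309 to 428 of them higher and 235 to 319 lower. Without 1 library, 798 to 1025 were called, 416 to 551 of them higher and 351 to 500 lower. The single libraries and the block within the compared groups were added after the data had been seen. At an adjusted p under 0.05, 1861 genes were called, 950 of them lower. The replicate block raised the falls to 822, and no Col-0 call reversed in any setting. No filter, RLE size factors, a minimum count of 30, organelle loci left out, the compared groups alone and DESeq2 gave 1039 to 1240 calls. For the named genes, 931 combinations of gene and setting kept the side of the threshold, 68 lost the call and 1, FLS2, gained it. The block in the fit over all groups changed no named call, and that of FLS2 was with the block in only the groups compared.

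In npr1-1 the calls numbered 1714 with the block, 639 with only the groups compared, 509 to 638 without 1 replicate and 1767 at 0.05. In jar1-1 they numbered 2056, 688, 684 to 763 and 2120. In ein2-5 they numbered 1599, 138, 425 to 662 and 1623, and 1737 with the block in only the groups compared. The difference of the step from Col-0 gave 3 genes for npr1-1 without a filter. For ein2-5 it gave 5 without a filter, 1 with the block, 9 with the block in only the groups compared, 1 with DESeq2 and 2 at 0.05. At 8 min against water, 594 genes were called with the block in only the groups compared and 89 to 127 without 1 replicate. Between 45 and 60 min the count was 229 with the block, 43 with total tags, 117 with only the groups compared, 941 with the block there, 5 to 13 without 1 replicate, 172 with DESeq2 and 215 at 0.05. Leaving out a replicate leaves fewer samples, and causes of the other differences were not tested. At this depth 1 tag is near 1 TPM, so changes of genes under a few TPM are poorly set.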
